A study of Mus musculus with 3 samples.

Results

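Vesicle release machinery was examined here as 48 genes of 31055 in the raw count matrices, chosen by name: the synaptotagmins Syt1 to Syt7, Syt9 to Syt14, Syt16 and Syt17, Doc2a and Doc2b, the priming factors Cadps, Cadps2, Baiap3, Unc13a, Unc13b and Unc13c, the complexins Cplx1 to Cplx3, the active zone genes Rims1 to Rims4, Erc1, Erc2, Bsn and Pclo, the SNAREs Snap25, Stx1a, Vamp1 and Vamp2, the SNARE regulators Stxbp5, Stxbp5l and Stxbp6, the vesicle proteins Sv2a to Sv2c, and Rab3a to Rab3c with their effector Rph3a. The list was made with earlier results of these data known. All 48 were matched by identifier to the GRCm38 gene annotation, where 17 overlap a gene on the opposite strand and 3 a gene on their own strand (Syt1 with Gm5136, Cadps2 with Rnf133 and Rnf148, Sv2c with Gm20075), whose reads could be shared. The counts were unique molecular identifiers (UMIs) in single nuclei from the olfactory bulbs of 3 adult C57Bl/6 mice, which formed 1 group. In each mouse a retrograde AAV carrying a nuclear H2B-GFP under the ubiquitous CAG promoter had been placed in the piriform cortex and anterior olfactory nucleus, so that bulb neurons with axons there could be sorted by fluorescence. The sort was not pure: 21236 of the 31703 retained nuclei lay in the 10 clusters matched here to inhibitory neurons, and glia were present as well.

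The authors' 22 clusters and 10 subclusters of excitatory neurons were used as deposited, and named here from marker genes that include none of the 48. The names are matches by markers, as in M1-like: 7 subclusters matched the mitral types M1, M2 and M3 and the tufted types T1, ET1, ET2 and ET4 (6346 nuclei), 1 matched periglomerular neurons, and 2 (1069 nuclei) matched none and were left out of the type comparison. Of the clusters 10 were inhibitory-neuron-like, and 4 of the remaining clusters were astrocyte-like, oligodendrocyte-like, oligodendrocyte-precursor-like (OPC-like) and microglia-like. Short names are used from here on. Slc17a7, the vesicular glutamate transporter, was at 362, 254 and 321 CPM in the 7 types of mice 1 to 3. In the inhibitory neurons it was at 23.0, 24.5 and 31.6 CPM. Gad1, the GABA-synthesising enzyme, was at 32.4, 78.3 and 24.3 CPM against 907, 780 and 669 CPM. Both genes were among the markers that gave the names, so these values describe the classes and do not test them. CPM stands for counts of a gene per 1000000 UMIs of that mouse and type.

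The mice gave 5845, 21105 and 4753 nuclei with 58526996, 213891496 and 62929479 UMIs. Retained barcodes shared between mice covered 164 nuclei, 0.517% of all. The M1 library of mouse 1 stood apart: it rested on 14 nuclei and 161593 UMIs, against 465 and 207 nuclei in mice 2 and 3. M1 calls are therefore also given without it. M3 had a median of 5915 UMIs per nucleus, the lowest of the 7 types, against 20781 in M2. Each p-value below comes from edgeR's quasi-likelihood test on UMIs summed per mouse and type, adjusted by the Benjamini-Hochberg method across every gene in the fit, and it measures only the spread among these 3 mice. A gene is called where the adjusted p is under 0.05 and the log2 fold change is beyond 1. Because the clusters were formed on the same counts, the p-values describe how evenly a difference was seen in the mice, not whether the types exist. Nor can fewer transcripts per nucleus be told apart from fewer transcribing nuclei in sums of this kind.

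Neurotransmitter release depends on a short chain of protein contacts. Rab3 on the vesicle meets RIM at the active zone, Munc13 (the Unc13 genes) and CAPS (the Cadps genes) prime the vesicle, the SNAREs Vamp, Snap25 and syntaxin zipper together under the control of complexin and tomosyn, and a synaptotagmin or Doc2 protein couples calcium entry to fusion. Many steps are served by paralogues that differ in calcium affinity, speed or vesicle class, and mitral, tufted, periglomerular and granule cells of the bulb release from axons, from dendrites or from both.

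Projection neurons and inhibitory neurons were compared first, as the sums over the 7 types and over the 10 inhibitory clusters and the periglomerular subcluster (21325 nuclei) in each mouse. Projection neurons carried more transcript of the active zone genes Rims1, Erc2 and Pclo, of the calcium sensors Syt9 and Syt7 and of the vesicle genes Sv2b and Rab3b, while inhibitory neurons carried more of Syt10, Syt6, Stxbp6 and Sv2c. Of the 48 members 14 were higher in projection neurons, where 15.2% of all 18147 genes tested were called higher, and 13 were lower, where 13.7% of all genes were. The remaining 21 were not called. The median absolute log2 fold change was 1.26 over the members and 0.55 over all genes tested. Because the list was made with earlier results known, comparisons of members with all genes describe the list and do not test it. The libraries of the classes did not overlap in 13 of the 14 higher members, as in 97.2% of all genes called higher, nor in the 13 lower members, as in 99.4% of all genes called lower.

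The active zone genes went one way: 6 of 8 rose (Rims1, Rims3, Rims4, Erc1, Erc2 and Pclo) and none was lower. Rims1 (chr1:22286251-22805994, minus strand), a scaffold that ties calcium channels and primed vesicles to the release site, was at 3466, 3414 and 3701 CPM in projection neurons of mice 1 to 3 and at 204, 145 and 254 CPM in inhibitory neurons. Its log2 fold change was 4.21 (SE 0.20, edgeR adjusted p = 2.9e-06), and the classes were far apart in every mouse. Erc2, an ELKS scaffold of the active zone, averaged 4102 CPM ± 247 (SD, n = 3) in projection neurons and 883 CPM ± 80.5 in inhibitory neurons, and Pclo, the cytomatrix protein piccolo, 1275 CPM ± 97.8 and 274 CPM ± 22.1. Rims2 and Bsn, which do related work, had log2 fold changes of 0.96 and 0.76 and were not called.

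The synaptotagmin and Doc2 genes, not all of them calcium sensors, were divided. Of the 17 synaptotagmin and Doc2 genes 3 were higher in projection neurons (Syt7, Syt9 and Doc2b) and 7 were lower (Syt2, Syt5, Syt6, Syt10, Syt12, Syt17 and Doc2a). Syt9, a fast calcium sensor related to Syt1 and Syt2, stood at 210, 209 and 230 CPM in projection neurons and at 6.87, 5.02 and 12.5 CPM in inhibitory neurons, a log2 fold change of 4.84 (SE 0.32, edgeR adjusted p = 1.1e-05). Syt7, a slow sensor of high calcium affinity linked to asynchronous release, was at 490, 457 and 528 CPM against 96.1, 88.6 and 96.1 CPM (log2 fold change 2.47). In both genes the lowest projection library lay above the highest inhibitory library.

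The reverse pattern was widest in Syt10, known in the bulb as the calcium sensor of IGF-1 secretion. It was at 178, 196 and 253 CPM in inhibitory neurons and at 3.91, 9.97 and 2.96 CPM in projection neurons, a log2 fold change of -5.09 (SE 0.45). Syt6, of the same disulfide-linked synaptotagmin group, was at 303, 327 and 319 CPM against 5.76, 18.9 and 4.57 CPM (log2 fold change -4.91). Syt17 was sparse, with 8.74, 12.6 and 30.1 CPM against 1.12, 1.84 and 1.83 CPM (log2 fold change -3.31). Syt1, the main fast sensor of synchronous release, was present in both classes, at 4132 CPM ± 137 in projection neurons and 3087 CPM ± 108 in inhibitory neurons, and was not called (log2 fold change 0.50).

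To show the starting points of these opposed genes, the 250 bases before 1 RefSeq start of each of 4 members (GRCm38.p6) are printed 5′ to 3′ on the gene's strand. Syt9 and Sv2b were high in projection neurons, Syt10 and Syt6 in inhibitory neurons. Capitals mark a match to GGTGTGA (the core of T-box sites, or TCACACC on the other strand) or TAATTA (a homeobox core), the 2 of 4 searched motifs that these windows hold.
Syt9, chr7:107370540-107370789, plus strand: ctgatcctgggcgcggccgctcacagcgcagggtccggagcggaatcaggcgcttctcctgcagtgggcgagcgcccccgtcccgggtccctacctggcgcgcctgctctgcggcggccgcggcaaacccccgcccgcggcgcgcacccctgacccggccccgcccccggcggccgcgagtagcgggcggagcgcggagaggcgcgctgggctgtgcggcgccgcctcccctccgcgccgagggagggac
Sv2b, chr7:75302610-75302859, minus strand: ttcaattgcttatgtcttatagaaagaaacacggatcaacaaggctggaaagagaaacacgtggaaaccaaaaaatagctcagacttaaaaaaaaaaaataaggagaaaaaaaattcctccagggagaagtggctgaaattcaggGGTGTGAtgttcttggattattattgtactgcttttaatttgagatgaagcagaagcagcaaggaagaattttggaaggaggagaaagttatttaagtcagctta
Syt10, chr15:89841861-89842110, minus strand: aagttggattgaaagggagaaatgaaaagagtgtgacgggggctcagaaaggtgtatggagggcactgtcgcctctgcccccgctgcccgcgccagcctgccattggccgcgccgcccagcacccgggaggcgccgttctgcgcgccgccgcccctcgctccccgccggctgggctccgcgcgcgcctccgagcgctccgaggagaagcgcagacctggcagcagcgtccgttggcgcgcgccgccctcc
Syt6, chr3:103574995-103575244, plus strand: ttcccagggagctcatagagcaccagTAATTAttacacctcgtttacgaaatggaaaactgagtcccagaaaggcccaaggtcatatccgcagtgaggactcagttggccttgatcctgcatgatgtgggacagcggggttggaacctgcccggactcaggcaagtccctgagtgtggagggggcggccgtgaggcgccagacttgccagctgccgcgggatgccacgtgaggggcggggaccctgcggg
The Sv2b window was 1 of 4 and the Syt6 window 1 of 3 for those genes, and no other window of either gene held a match. The windows of Rims1 and Stxbp6, which also differed widely between the classes, held no match and are not printed. GGTGTGA was found in 1 of the members' 46 promoter windows and in 3.33% of all 32851 windows, and TAATTA in 1 of 46 and in 4.84%. TGACAG, the Meis core (CTGTCA on the other strand), was in 7 of 46 (15.2%) and in 15.9% of all. TGACGTCA, the full cyclic AMP response element, was in 0 of 46 and in 1.55% of all. The GC content was 80.4% in the Syt9 window, 72.0% in Syt10, 60.4% in Syt6 and 35.2% in Sv2b. These matches are a description of letters in the windows of the 36 members that have an entry.

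Vesicle proteins and Rab3 genes were exchanged within their families. Sv2b, a glycoprotein of the vesicle membrane, was at 353, 290 and 339 CPM in projection neurons and at 15.8, 9.39 and 42.5 CPM in inhibitory neurons (log2 fold change 3.95), and Sv2c at 3.22, 6.34 and 3.17 CPM against 77.0, 105 and 87.85 CPM (log2 fold change -4.29). Sv2a was not called (log2 fold change -0.64). Rab3b was at 319, 246 and 287 CPM in projection neurons and at 34.4, 36.2 and 33.4 CPM in inhibitory neurons, a log2 fold change of 3.11 (SE 0.12), whereas Rab3a was lower in projection neurons (-1.40) and Rab3c was not called (-0.32). None of the named libraries of Sv2b, Sv2c and Rab3b overlapped between the classes.

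Of the 4 SNAREs 1 was higher and 1 lower. Snap25, the target SNARE, had a log2 fold change of -0.24 and Stx1a, its syntaxin partner, of 0.23, and neither was called. The vesicle SNAREs were opposed, with Vamp1 higher (1.47) and Vamp2 lower (-1.15) in projection neurons. Stxbp6, or amisyn, a syntaxin-binding protein, was at 747, 778 and 744 CPM in inhibitory neurons and at 12.9, 46.2 and 11.1 CPM in projection neurons (log2 fold change -4.92, SE 0.56), while the tomosyns Stxbp5 and Stxbp5l were not called. Cplx2 was lower (-2.59) and Cplx1 and Cplx3 were not called. Of the priming genes Unc13b was higher (1.30) and Unc13c lower (-1.66). Doc2b was called higher (3.25), but mouse 1, with its 14 M1 nuclei, had 0.30 CPM in projection neurons against 18.5 and 19.1 CPM in mice 2 and 3, so that its classes overlapped, and the call was lost without mouse 2 or without mouse 3.

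In projection neurons the libraries of mouse 2 were the highest of the 3 for Syt10, Syt6, Stxbp6 and Sv2c, and they were also the highest for Gad1. With every nucleus left out that held a UMI of the other class's transmitter genes (8569 nuclei), the log2 fold changes grew to -6.08 for Syt10, -5.96 for Stxbp6, 6.00 for Syt9 and 5.55 for Sv2b. This choice kept 2502 of 7415 nuclei of all projection subclusters and 17669 of 21325 inhibitory nuclei. Results below with such nuclei left out therefore rest on far fewer projection nuclei, and a deeper nucleus is likelier to be left out. Of 52 other release genes tested, among them Syp, Nsf and the synapsins, 6 were higher and 10 lower in projection neurons. Synpr, a synaptophysin relative, was the widest of those lower ones at -4.30.

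**Figure D1:**
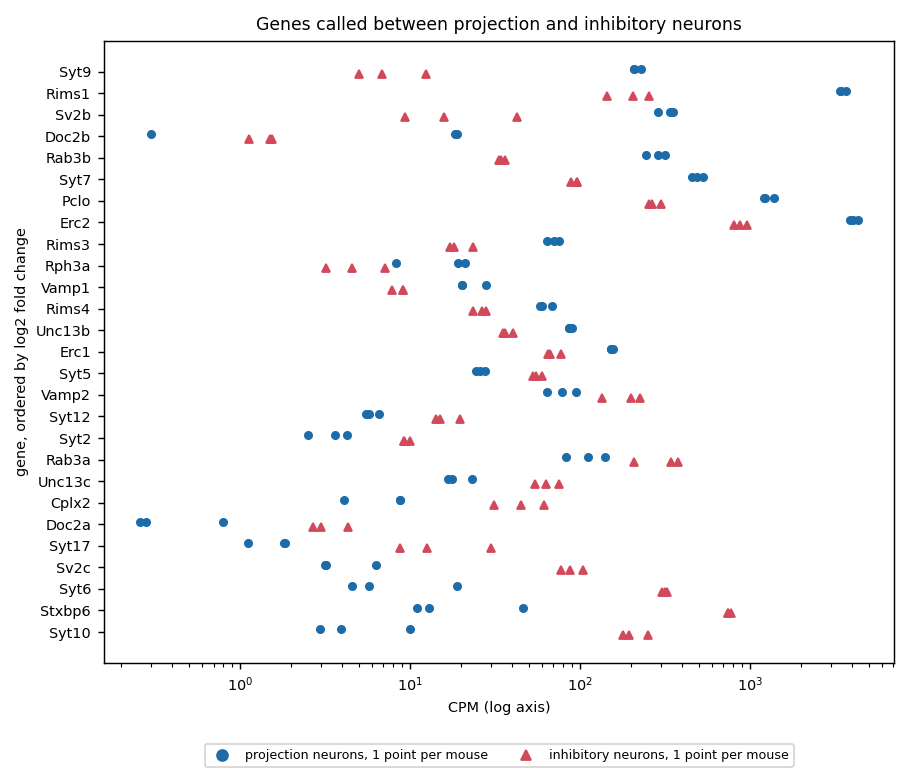
CPM (log axis) of the members called between projection neurons (circles) and inhibitory neurons (triangles), 1 point per mouse, with genes ordered by log2 fold change. The circles and triangles are apart in every row except Doc2b, where the circle of mouse 1 (0.30 CPM) lies below the triangles.

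Across the 7 projection types, 43 of 47 members tested differed among types by the F test at an adjusted p under 0.05, against 64.8% of all 14696 genes. Syt2, Syt3, Syt12 and Unc13a did not pass, and Doc2a was too sparse to test. Setting each type against the mean log level of the other 6 gave 92 calls, 49 higher and 43 lower. They fell on 32 members, where 37.1% of all genes were called in at least 1 type. Of the 32, 26 were higher in some type and lower in another, as were 55% of all genes called in any type, and setting each type against the mean of the others favours such pairs of calls. The 15 members called in no type were Syt1, Syt2, Syt3, Syt11, Syt12, Syt14, Cadps, Unc13a, Unc13b, Rims4, Erc1, Snap25, Stxbp5l, Vamp2 and Sv2a. Among them Snap25 ranged from 1204 CPM in ET4 to 1699 CPM in ET1, and Syt1 from 2834 CPM in ET4 to 4701 CPM in M2.

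**Figure D2:**
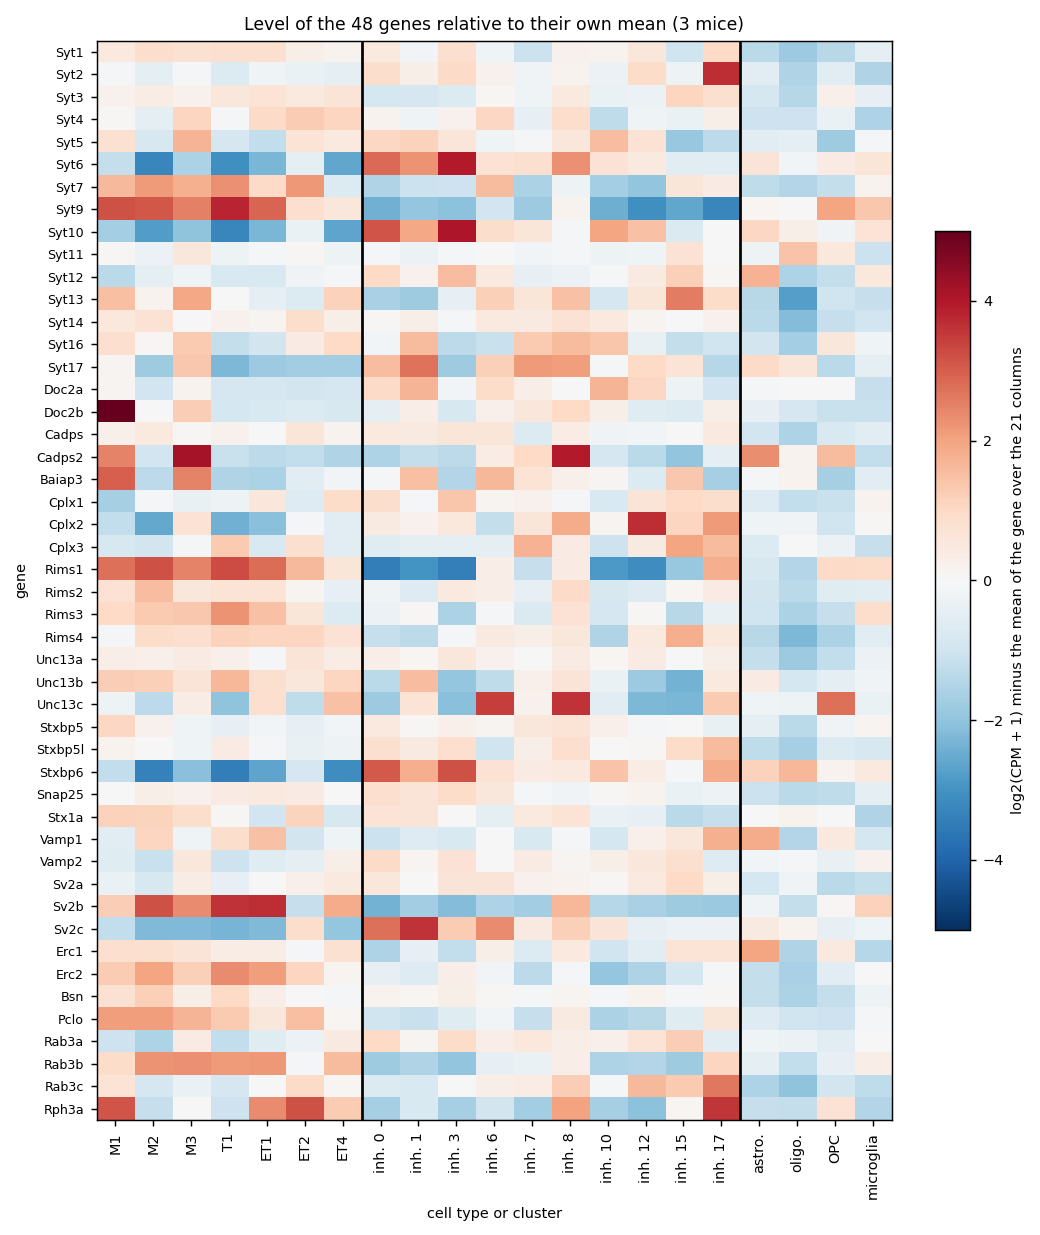
Level of the 48 members (rows) in the 7 projection types, 10 inhibitory clusters and 4 glial classes (columns), as log2(CPM + 1) of the 3 mice less the gene's own mean over the 21 columns, with colours ending at 5 in either direction, so that columns are compared for a gene and not genes with each other. Doc2b is darkest in M1, Cadps2 in M3 and inhibitory cluster 8, and Syt6 and Syt10 in inhibitory clusters 0 and 3.

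The M1 type carried 12 members above the other types, where 7.81% of all genes were called higher, and 2 below, where 4.04% were. Doc2b (chr11:75768966-75796049, minus strand), a soluble calcium sensor of high affinity linked to spontaneous and asynchronous release, was at 24.8, 109 and 106 CPM in M1 of mice 1 to 3, and at no more than 5.45 CPM in any library of the other types. Its log2 fold change was 7.19 (SE 0.34, edgeR adjusted p = 1.3e-14), and the libraries did not overlap. Thinned to 3000 UMIs, 25.0% of 681 M1 nuclei held a Doc2b UMI (95% exact interval 21.8% to 28.4%, counting error only, 68.2% unthinned), 0.775% of 258 M3 nuclei and 0.132% of 2276 nuclei of inhibitory cluster 3. The median nucleus had 18005, 5915 and 9736.5 UMIs in these 3 groups before thinning. Cluster 3 had the lowest mean Doc2b of the inhibitory clusters (0.227 CPM), and cluster 8 the highest (3.31 CPM).

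Stxbp5, or tomosyn, which binds syntaxin and Snap25 in place of the vesicle SNARE, was at 285, 266 and 285 CPM in M1 and between 94.5 and 165 CPM in the other types, a log2 fold change of 1.22 (SE 0.09). Cplx1, the complexin that clamps and supports fast fusion, was lower there, at 30.9, 25.5 and 13.9 CPM, with the other libraries at 36.7 CPM or more (log2 fold change -1.87, SE 0.18). Neither gene's M1 libraries overlapped the rest. The other M1 calls were higher for Baiap3 (4.18), Rph3a (3.07), Syt17 (2.92), Cadps2 (2.25), Syt13 (1.43), Stxbp6 (1.35), Syt10 (1.14), Sv2c (1.12), Stx1a (1.03) and Syt16 (1.01), and lower for Sv2b (-1.40). By library size only Stx1a (0.99), Syt16 (0.98) and Syt10 (1.12, edgeR adjusted p = 0.0507) were not called. Without mouse 2 Syt16 (0.86), Sv2c (0.66) and Syt10 (0.39) lost their calls.

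In several of these the library of 14 nuclei differed from the other M1 libraries. Baiap3, a relative of Munc13 that acts in dense-core vesicle traffic, was at 49.5 CPM in M1 of mouse 1 and at 13.1 and 9.36 CPM in mice 2 and 3, and Cadps2 at 297 CPM against 90.6 and 63.0 CPM. Rph3a, the Rab3 effector rabphilin, went the other way, at 12.4 CPM against 68.2 and 76.5 CPM. Without that library, but with mouse 1 kept in the other types, all 14 calls were kept and Pclo and Syt9 were added to those higher. The log2 fold changes were then 7.38 for Doc2b, 3.90 for Baiap3, 3.21 for Rph3a, 1.95 for Cadps2, 1.27 for Stxbp5 and -1.88 for Cplx1. With mouse 1 left out of every type the calls of Stxbp6 (1.22, edgeR adjusted p = 0.15) and Syt10 (1.13, adjusted p = 0.1) were lost. The study picked Doc2b and Baiap3 as M1 genes and Cadps2 as an M3 gene on these same nuclei, and Doc2b and Cadps2 are leading genes of those subclusters here, so their direction is not independent evidence.

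The M1 calls of Stxbp6, Syt10 and Sv2c, 3 genes abundant in inhibitory neurons, stood beside transcripts of inhibitory markers. In M1 of mice 1 to 3 Stxbp6 was at 55.7, 95.2 and 27.3 CPM, Syt10 at 0, 21.4 and 5.38 CPM and Sv2c at 0, 11.4 and 4.78 CPM. Gad1 was at 37.1, 103.7 and 35.3 CPM there, and Meis2, an inhibitory-neuron marker, at 167, 334 and 83.9 CPM, so that mouse 2 was the highest for all 5 genes. With the nuclei holding inhibitory transmitter transcripts left out, M1 rested on mice 2 and 3, Stxbp6 had a log2 fold change of -0.88 (edgeR adjusted p = 0.236) and Sv2c of 0.14 (adjusted p = 0.916), and Syt10 was too sparse to test. The other 11 M1 calls were kept.

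In M2 4 of the 8 active zone genes were higher. The type carried 7 members above and 7 below the other types (6.83% and 5.29% of all genes). Rims2 was at 2156, 2161 and 2072 CPM in M2 and at most 1360 CPM in any other library, a log2 fold change of 1.31 (SE 0.10). Rims1 (1.12), Pclo (1.03) and Bsn (1.03) rose as well, but their libraries overlapped those of other types. Sv2b (1.54), Vamp1 (1.15) and Stx1a (1.11) were also higher. When scaled by library size only, Rims2 (1.14) and Sv2b (1.37) stayed called, and Rims1 (0.95), Pclo (0.86), Bsn (0.86), Vamp1 (0.99) and Stx1a (0.95) did not. Syt4, a synaptotagmin whose first C2 domain does not bind calcium, was at 39.6, 41.4 and 42.2 CPM in M2 and at 47.3 CPM or more elsewhere (log2 fold change -1.07). With nuclei thinned to 3000 UMIs the Syt4 difference was -0.78 and not called.

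M3 was set apart by Cadps2 (chr6:23262773-23839421, minus strand), or CAPS2, a priming factor of dense-core vesicles. It was at 519, 469 and 493 CPM in M3. The highest library of the other named types was the 14-nucleus M1 library at 297 CPM, followed by 90.6 CPM. The log2 fold change was 4.75 (SE 0.17, edgeR adjusted p = 3.8e-16). After thinning, 51.2% of 258 M3 nuclei held a Cadps2 UMI (95% exact interval 44.9% to 57.4%, counting error only), 15.4% of 681 M1 nuclei and 3.45% of 2117 T1 nuclei. M3 had 7 members higher and 1 lower (5.37% and 3.2% of all genes). The others higher were Baiap3 (4.18), Syt17 (3.64), Cplx2 (2.28), Syt5 (1.71), Syt13 (1.48) and Syt16 (1.05), all with libraries that overlapped other types, and Rph3a was lower (-1.74). The Rph3a call was lost without mouse 1 (-1.87, edgeR adjusted p = 0.0785) or without mouse 2 (-0.95, adjusted p = 0.367), and that of Syt16 without mouse 1 (0.99) or without mouse 3 (0.96). Of the others, Cplx2 (63.5, 47.7 and 16.1 CPM in M3), Syt5 (145, 71.5 and 99.9 CPM) and Syt17 (21.8, 10.6 and 8.06 CPM) were also higher in inhibitory neurons than in projection neurons. The inhibitory markers Slc32a1 (21.8, 61.8 and 16.1 CPM) and Gad1 (85.3, 133.3 and 45.1 CPM) had their highest and second highest means of the 7 types in M3. With the nuclei holding inhibitory transmitter transcripts left out, the 3 calls were kept at 2.12 for Cplx2, 1.87 for Syt5 and 4.55 for Syt17, and the part of RNA from other cells in the remaining difference was not tested.

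T1 was the type of Syt9 and Rims3. Syt9 was at 310, 331 and 324 CPM in T1 and at most 228 CPM in the other types, a log2 fold change of 1.76 (SE 0.10). Rims3, a short RIM with a single C2 domain, was at 112, 108 and 121 CPM and at most 92.8 CPM elsewhere (1.67, SE 0.14), and Erc2 at 5548, 5824 and 5455 CPM and at most 5083 CPM elsewhere (1.21, SE 0.12). The 3 genes did not overlap the other types in any library. T1 had 7 members higher and 11 lower (6.68% and 5.5% of all genes). Sv2b (1.98), Rims1 (1.18), Syt7 (1.11, not called by library size only) and the sparse Cplx3 (2.95) were the other ones higher, and the lower ones included Unc13c (-2.16), Syt16 (-1.61) and Cadps2 (-1.22). With the nuclei holding inhibitory transmitter transcripts left out, 4 of the 11 stayed lower, 6 were no longer called and 1 was too sparse to test.

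ET1 had 5 members higher and 6 lower (5.17% and 3.44% of all genes), none of them free of overlap. The higher ones were Sv2b (2.02), Rph3a (1.77), Vamp1 (1.49), Unc13c (1.39) and Cplx1 (1.03). Stx1a was at 4.94, 7.41 and 6.80 CPM in ET1, a log2 fold change of -1.53, and was likewise low in ET4.

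ET2 had 8 members higher and 7 lower (7.64% and 6.18% of all genes). With the nuclei holding inhibitory transmitter transcripts left out, 4 stayed higher (Cplx2, Rab3c, Rph3a and Sv2c) and 6 lower. Sv2b was low, at 28.9, 15.0 and 4.94 CPM, whereas no other type had less than 50.3 CPM (log2 fold change -4.01, SE 0.26). Rab3b was at 66.0, 62.5 and 70.5 CPM and at 111 CPM or more elsewhere (-2.09, SE 0.13). Rab3c, in contrast, was at 393, 374 and 398 CPM, with 339 CPM the highest elsewhere (1.10, SE 0.10), and Sv2c at 21.99, 29.7 and 28.2 CPM, with 11.4 CPM the highest elsewhere (3.08, SE 0.29).

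ET2 also had the highest Gad1 of the 7 types, at 106, 162 and 44.4 CPM. Syt10 (2.10), Syt6 (1.98) and Stxbp6 (1.79), all abundant in inhibitory neurons, were called higher in ET2 with overlapping libraries: Stxbp6 was at 77.5, 146 and 14.8 CPM, lowest in the mouse with the lowest Gad1. Without the nuclei holding inhibitory transmitter transcripts, Stxbp6 (0.64, edgeR adjusted p = 0.374) and Syt6 (0.02, adjusted p = 0.995) were no longer called in ET2, Syt10 and Cplx3 (2.32 before) were too sparse to test, and Cadps2 (-1.31 before) was lost from those lower at -0.86 (adjusted p = 0.0705). The log2 fold change of Sv2c was again 3.08.

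ET4 carried the least of several active zone and sensor genes: 9 members were lower and 3 higher (9.32% and 8.72% of all genes). Syt7 was at 71.8, 79.9 and 84.5 CPM, with 223 CPM the lowest elsewhere (-2.65, SE 0.13). Rims1 was at 665, 664 and 760 CPM, with 1227 CPM the lowest elsewhere (-2.18, SE 0.14), and Rims3 at 14.8, 17.5 and 9.78 CPM, with 24.3 CPM the lowest elsewhere (-1.98, SE 0.21). None of these libraries overlapped. Over all ET4 nuclei Gad2, an inhibitory marker, was at 103.75 CPM, the highest of the named types, with ET2 next at 63.8 CPM. Gad1, at 66.7 CPM, was below its level in ET2 (127 CPM). The part of RNA from other cells in the ET4 differences was not tested.

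Erc2 (-1.61), Pclo (-1.57) and Rims2 (-1.24) were lower in ET4 without overlap too, and Syt9 (-2.31), Cadps2 (-1.95) and Stx1a (-1.60) with it. Unc13c, or Munc13-3, rose to 71.8, 67.2 and 65.7 CPM, with 50.045 CPM the highest elsewhere (1.93, SE 0.16), and Cplx1 to 171, 141 and 120 CPM, with 119 CPM the highest elsewhere (1.25, SE 0.12). Rab3a was also higher (1.03), a call lost without mouse 1, without mouse 3 or with M1 left out. With M1 left out of the fit, the ET4 difference of Cplx1 was 0.95 and fell short of the limit.

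**Figure D3:**
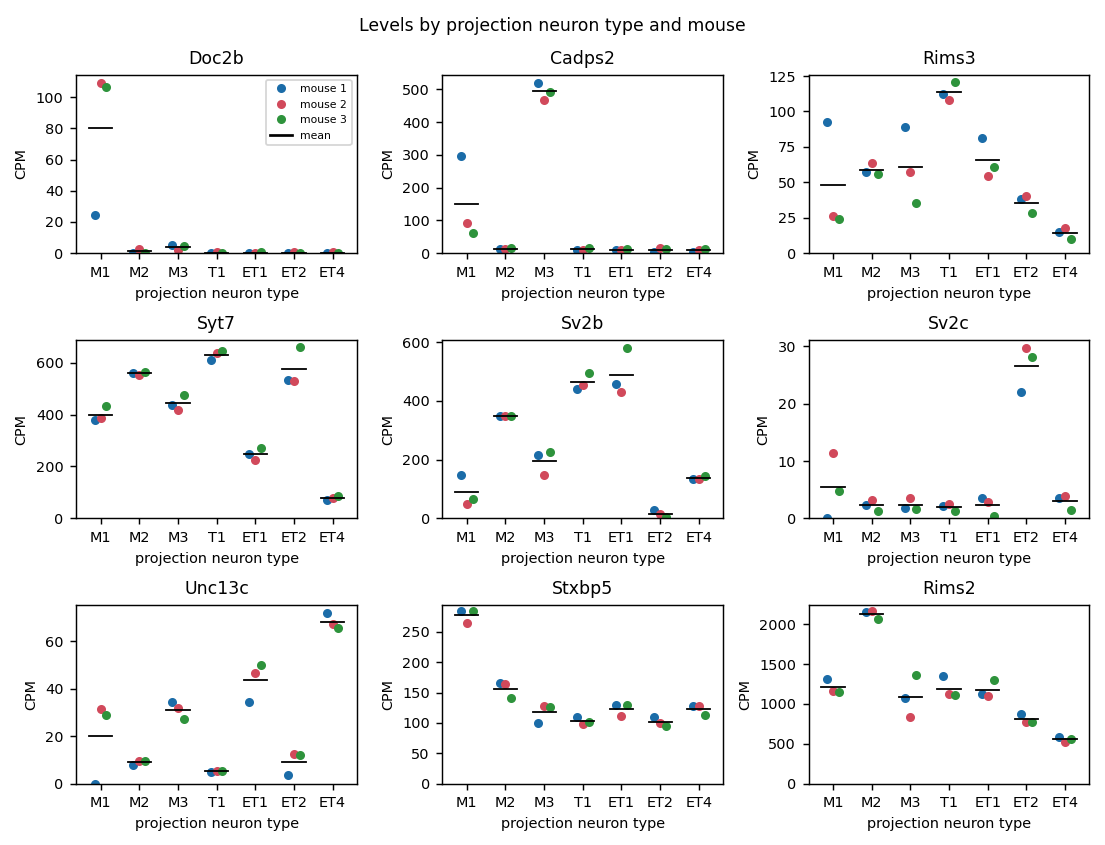
CPM (linear axes from 0) of 9 members in the 7 projection types, 1 point per mouse, with a line at the mean. The Doc2b points of M1 (24.8 to 109 CPM) and the Cadps2 points of M3 (469 to 519 CPM) stand above every other type, and the Syt7 points of ET4 (71.8 to 84.5 CPM) below them.

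Mitral types (M1 to M3) were set against tufted types (T1, ET1, ET2 and ET4), each type weighted equally. Of 47 members 8 were higher in mitral types (5.53% of all genes) and 1 lower (3.81%). The higher ones were Doc2b (4.27, SE 0.76), Baiap3 (3.09, SE 0.56), Cadps2 (3.01, SE 0.17), Syt17 (2.82, SE 0.40), Syt13 (1.34, SE 0.12), Stx1a (1.26), Pclo (1.07) and Syt16 (1.00), the last of which was lost without mouse 2, without mouse 3 or without M1. In no member did the 9 mitral libraries clear the 12 tufted ones. M2 alone had Cadps2 at 13.3 CPM ± 1.43 (SD, n = 3), beside 11.6 CPM ± 2.50 in T1, and Baiap3 at 0.264 CPM ± 0.145, so that for both genes M1 and M3 were the high mitral types. Without the M1 library of 14 nuclei the first 3 were at 4.33, 3.001 and 2.91. Cplx3 was lower (-1.66, edgeR adjusted p = 0.0335), and this call was lost without mouse 1 (-1.09) or without M1 (-1.50).

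Among the 10 inhibitory clusters, 46 of the 47 members tested differed by the F test (59.2% of all 14722 genes), and Doc2b was too sparse to test. Against the mean of the other 9 clusters 69 calls were higher and 68 lower, on 40 members, where 38.6% of all genes were called in at least 1 cluster. Per cluster and direction, between 1.51% and 8.76% of all genes were called.

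Cluster 3 was high in Syt10, at 464, 518 and 635 CPM (log2 fold change 3.12, SE 0.22), and in Syt6, at 823, 788 and 808 CPM (2.997, SE 0.24). Both genes are among the 10 leading genes of that cluster, so these values describe it. In all it had 6 members higher (4.28% of all genes) and 9 lower (7.7%). Cluster 1 was high in Sv2c, at 150, 207 and 199 CPM (2.71, SE 0.23), again a leading gene of its cluster, and in Unc13b, at 109, 83.6 and 112 CPM (2.43, SE 0.15). The 4 genes did not overlap the other inhibitory clusters. Cluster 1 had 8 members higher (5.6% of all genes) and 4 lower (3.85%). Cluster 0, with 7681 nuclei, had 4 members higher and 10 lower (3.64% and 5.9% of all genes), none without overlap, and shared high Stxbp6 (1.99), Syt10 (2.04) and Syt6 (1.65) with cluster 3.

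Cluster 6 was high in Syt7, at 381, 372 and 397 CPM (2.47, SE 0.11), and low in Cplx2, at 15.7, 12.8 and 2.97 CPM (-2.39, SE 0.34). The cluster had 8 members higher (6.6% of all genes) and 3 lower (3.84%). Its Unc13c stood at 237, 265 and 311 CPM (3.76, SE 0.17), and that of cluster 8 at 226.5, 377.5 and 307 CPM (3.91, SE 0.17), so that these clusters overlapped each other and no other inhibitory cluster reached them. Cluster 8 had 14 members higher and 2 lower (7.65% and 1.51% of all genes). Cadps2, a leading gene of the cluster, was at 626, 286 and 383 CPM (4.83, SE 0.13). Sv2b was at 88.9, 21.2 and 253 CPM (3.68), but with nuclei holding glutamate transporter transcripts left out the difference was 0.55 (edgeR adjusted p = 0.209).

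Cluster 17, of 190 nuclei, had the most calls, with 16 members higher and 8 lower (8.76% and 6.91% of all genes). Rph3a was at 98.5, 60.8 and 50.6 CPM (5.17, SE 0.32), Rims1 at 1563, 1550 and 1693 CPM (3.91, SE 0.17) and Syt2, the fast sensor typical of rapidly firing inhibitory synapses, at 89.0, 72.0 and 77.1 CPM (3.66, SE 0.22). Rab3c (2.34), Vamp1 (2.26), Pclo (1.46), Stxbp5l (1.29) and Syt1 (1.05) also cleared the other clusters in every library, and the Syt1 call was lost without mouse 3 or by library size only. Its median of 16912 UMIs per nucleus was the highest of the inhibitory clusters, and its smallest library held 20 nuclei.

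Cluster 12 was high in Cplx2, at 427, 300 and 271 CPM (3.03, SE 0.21), which is among its leading genes, and had 2 members higher (3.89% of all genes) and 8 lower (2.26%). Cluster 15 was high in Rims4, a short RIM, at 161, 97.2 and 97.2 CPM (1.94, SE 0.18), with 5 members higher (6.34%) and 12 lower (6.97%). Cluster 10 was high in Syt5, at 85.6, 87.8 and 108 CPM (1.46, SE 0.16), and low in Erc2, at 297, 332 and 231 CPM (-1.37, SE 0.15). Of its members 2 were higher (4.97%) and 8 lower (2.78%). Cluster 7, which carried all 5 of 5 immature-neuron markers beside 7 of 7 inhibitory ones, was low in Cadps, at 531, 728 and 512 CPM (-1.11, SE 0.13), which fell to -0.99 and lost its call when scaled by library size only. It had 4 members higher (5.9%) and 4 lower (4.12%). Cluster 7 also held the astrocyte marker Slc1a3 at 471.5 CPM, against at most 84.3 CPM in the other inhibitory clusters. Its median of 4498 UMIs per nucleus was the lowest of them, and the part of RNA from other cells was not tested. The libraries named for clusters 12, 15, 10 and 7 did not overlap those of the other inhibitory clusters.

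Shares within a family are meant for comparison of a paralogue between cell types. Paralogues differ in length, as Sv2b (194369 bp) and Sv2a (14371 bp), and UMIs were not corrected for capture. Shares of different paralogues within a type therefore count UMIs and do not measure relative abundance. The share is the percent of a family's UMIs that a paralogue held, averaged over 3 mice. Within the Sv2 family Sv2b held 77.0% in T1, 76.7% in M2 and 72.7% in ET1 but 5.85% in ET2, where Sv2a held 83.7%. Sv2c held 49.4% in inhibitory cluster 1 and 0.335% in T1. Within the Rab3 family Rab3b held 65.5% in M2 and 61.9% in T1, Rab3c held 63.3% in ET2 and 58.4% in M1, and Rab3a held 72.3% in inhibitory cluster 0, where Rab3b held 3.77%.

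The Munc13 genes changed places in the same manner. Unc13b held 60.4% of the family's UMIs in T1, Unc13a 86.4% in inhibitory cluster 3, and Unc13c 77.5% in cluster 6, 69.9% in cluster 8, 31.8% in ET4 and 2.83% in T1. Of Rims1 and Rims2 together, Rims1 held from 55.6% (ET4) to 78.6% (T1) in the projection types and 3.88% in inhibitory cluster 3, yet 62.2% in cluster 17. Of the CAPS pair, Cadps2 held 33.0% in M3, 25.2% in inhibitory cluster 8 and 0.737% in ET2. In M1 it held 23.1% in mouse 1, on its 14 nuclei, and 7.20% and 4.81% in mice 2 and 3. Vamp1 held 32.7% of the Vamp pair in M2, 31.0% in ET1, 36.5% in cluster 17 and 5.36% in M3.

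By contrast Syt1 held most of the synaptotagmin UMIs in every projection type, from 69.3% in ET2 to 82.3% in ET1, with 55.1% the lowest inhibitory value, in cluster 15. Syt7 held between 2.20% (ET4) and 12.9% (ET2) in the projection types. Complexin shares followed Cplx1 in most types (95.5% in M2) and Cplx2 in inhibitory cluster 12 (73.2%). Stxbp5 held 40.2% of the tomosyn pair in M1 and 17.7% in T1. The Doc2 family had 3, 12 and 1 UMIs in T1 of mice 1 to 3, and at most 29 in any library of the projection types other than M1, so its shares in those types cannot be read. In M1 Doc2b held 98.7%, and in inhibitory cluster 0, on 45, 155 and 32 UMIs, Doc2a held 84.5%.

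**Figure D4:**
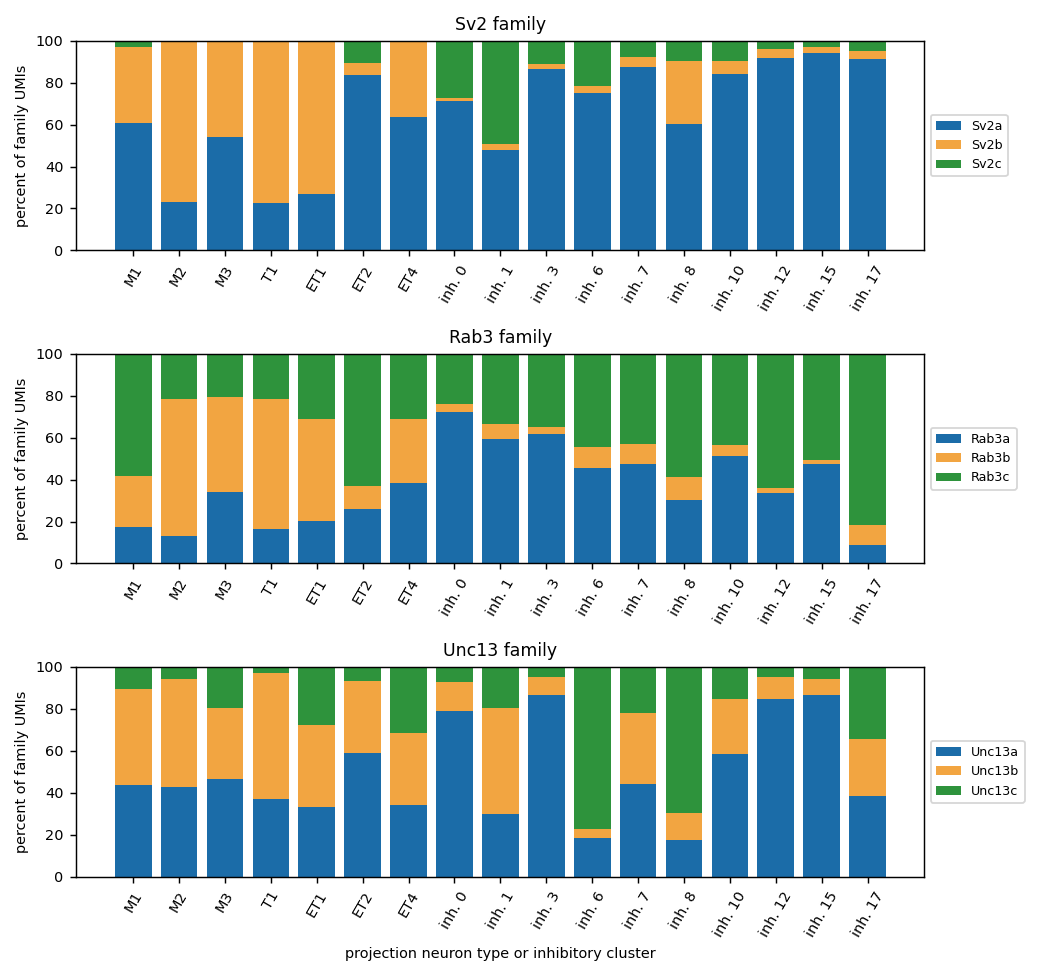
Percent of the UMIs of the Sv2, Rab3 and Unc13 families held by each paralogue in the 7 projection types and 10 inhibitory clusters, as stacked means over 3 mice. Sv2b fills most of the Sv2 bar in T1 (77.0%) and M2 (76.7%) and little of it in ET2 (5.85%), and Unc13c most of the Unc13 bar in inhibitory clusters 6 (77.5%) and 8 (69.9%).

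Glia were compared with neurons last. Of 44 members tested, 24 were lower in the mean of the 4 glial classes than in the mean of both neuron classes (9.51% of all 12904 genes) and 0 were higher by edgeR (9.5% of all genes). DESeq2 also gave 0, and at an unadjusted p under 0.05 the number higher by over 1 on the log2 scale was 0. The widest differences were in Syt13 (-2.01), Syt1 (-1.95), Syt7 (-1.87), Rims4 (-1.85) and Erc2 (-1.84). The median log2 fold change was -1.03 over the members and -0.01 over all genes. A further cluster of 972 nuclei, ensheathing-glia-like, was not among the 4 classes. Added as a class it left the counts at 24 lower and 0 higher, and on its own it had 23 of 43 members lower (12.2% of all genes) and 1 higher, Stxbp6 (1.46, 16.2% of all genes).

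Transcripts of neuronal marker genes were also counted in these glial nuclei. The neuronal reference genes (Gad1, Gad2, Slc32a1, Meis2, Slc17a7, Slc17a6 and Cdhr1) stood at 24.9% to 65.6% of their neuron mean in astrocytes, 17.6% to 42.9% in oligodendrocytes, 10.3% to 40.1% in OPCs and 25.2% to 84.1% in microglia. Syt1 stood at 27.8%, 19.7%, 26.8% and 50.03% of its neuron mean in the same 4 classes, inside each of those ranges. The part of RNA from neurons in the members' glial levels was not tested.

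Some members were higher in a glial class than in neurons. Astrocytes had 5 of 44 (14% of all genes) and 23 lower (9.72%). Erc1 was at 406, 328 and 453 CPM in astrocytes, 153, 153 and 156 CPM in projection neurons and 64.8, 67.1 and 77.2 CPM in inhibitory neurons (log2 fold change 1.81, SE 0.24). Cadps2 was at 154, 128 and 128 CPM in astrocytes (1.69, SE 0.23), and 30.5% of 975 thinned astrocyte nuclei held a Cadps2 UMI. Vamp1 was at 52.6, 34.8 and 58.2 CPM (1.61, SE 0.24). In these 3 genes no astrocyte library overlapped a neuron library summed over its class. Single neuron types did reach astrocyte levels: Cadps2 averaged 494 CPM in M3 and 432 CPM in inhibitory cluster 8. Vamp1 averaged 36.7 CPM in ET1 and 45.2 CPM in inhibitory cluster 17, above its lowest astrocyte library. Syt12 (1.52) and Stxbp6 (1.12) overlapped, the Stxbp6 call was lost without mouse 1 or mouse 3, and the mean CPM of Stxbp6 was lower in astrocytes (315 CPM) than the neuron mean (390 CPM), since the fold change averages logs over both neuron classes.

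In oligodendrocytes Syt11, a synaptotagmin that does not act as a calcium sensor, was at 1112, 591 and 650 CPM, against 256, 260 and 262 CPM in projection neurons (log2 fold change 1.49, SE 0.25, no overlap), and 2 members were higher (12.9% of all genes) and 26 lower (13.3%). In OPCs 1 member was higher (11.9%) and 20 lower (8.55%): Unc13c was at 185, 196 and 130.5 CPM (2.15, SE 0.28), above every neuron library summed over the class. In microglia 0 members were higher by edgeR (10.8%) and 15 lower (7.35%). The 4 classes rest on 1136, 282, 151 and 146 nuclei, and their smallest libraries on 188, 21, 10 and 19 (astrocytes, oligodendrocytes, OPCs and microglia).

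**Figure D5:**
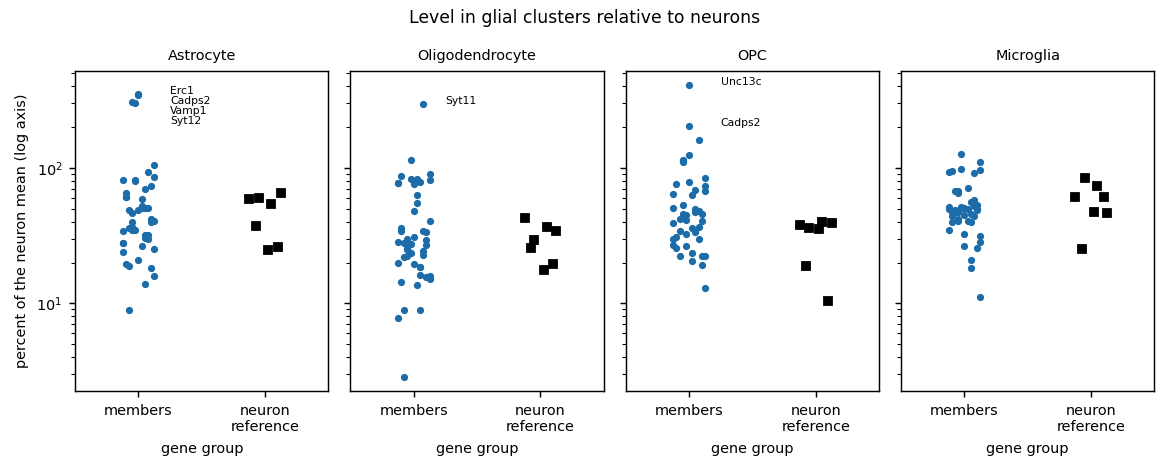
Mean level in each glial class as percent of the neuron mean (log axis), with circles for the members above 0 and squares for the 7 neuronal reference genes. Of the circles 28 of 48 in astrocytes, 24 of 48 in oligodendrocytes, 20 of 46 in OPCs and 35 of 45 in microglia lie within the range of the squares, and 12, 14, 26 and 7 lie above it. Erc1, Cadps2, Vamp1 and Syt12 in astrocytes, Syt11 in oligodendrocytes and Unc13c and Cadps2 in OPCs lie above the rest.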

How the data were processed

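Nuclei of 3 mice were profiled with 10x 3′ chemistry. Per the file headers and the study's methods, the authors deposited raw UMI counts per gene and nucleus (Cell Ranger 3.0.2, mouse GRCm38) and a cell table with their Seurat clusters, retaining nuclei with at least 1001 genes and at most 4.575 percent mitochondrial counts as the deposited values show. Doublets were gated in the sort by the authors, and no doublet caller was run. Of the cell table, 8 columns of other per-nucleus values were not used. Counts were summed per mouse and type (at least 10 nuclei), filtered by edgeR's filterByExpr, scaled by TMM and fitted with edgeR 4.0.16 quasi-likelihood models in R 4.3.3, checked on simulated data. Libraries held 161593 to 16961469 UMIs for types and 308764 to 44969722 for inhibitory clusters. Same-numbered libraries came from the same mouse; their deviations correlated at a mean of 0.108 among types and 0.281 between neuron classes (different mice, -0.0535 and -0.141). Alternatives were other scalings, DESeq2 1.42.0, no filter, thinning to 3000 UMIs, at least 1500 genes per nucleus, a block for mouse, leaving out each mouse, and leaving out mixed nuclei, shared barcodes, M1, or clusters 10 and 12, and adding ensheathing glia, the last 4 chosen after seeing the data. Full values were given for the called members of largest fold change without overlapping libraries, up to 3 per projection type and direction, 5 per direction between classes and 2 per inhibitory cluster, for up to 5 per direction between mitral and tufted types, where every member's libraries overlapped, and for the paralogue groups; others named were chosen after their values were seen. The members and gene lists were chosen with earlier results of these data known. Promoter sequences are from RefSeq, GRCm38.p6.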

Additional observations from a re-analysis of the deposited data

How the results depend on the processing

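Of 139 counts of called members under alternatives, 134 stayed within 1.5 times the reported count, and 5 did not. The 1 member lower in mitral types (Cplx3) became 0 with mixed nuclei left out, where Cplx3 was no longer tested, and 0 to 1 when each mouse was left out in turn. The 0 members higher in glia became 1 when scaled by library size only, 1 with mixed nuclei left out, and 0 to 1 when each mouse was left out, and the gene was Stxbp6 each time (1.01, 1.29 and, without mouse 2, 1.09 on the log2 scale). The 49 differences given in full were picked on these data by fold change and, for most, by non-overlap, which favours stable calls. Of 657 values of these 49 (6 of them between mitral and tufted types, with overlapping libraries) 650 kept their direction and call, 7 lost the call and 0 changed sign. Those 7 were Cplx3 (-1.09 and -1.50, without mouse 1 and without M1), Cadps in inhibitory cluster 7 at -0.99 by library size and -0.999 without mouse 3, Syt4 in M2, Cplx1 in ET4 and Sv2b in inhibitory cluster 8. The cause was not tested.

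With mouse as a replicate block, 44 members differed among types, with 50 higher and 48 lower type calls, 8 higher and 1 lower between mitral and tufted types, 14 and 13 between neuron classes, 47 among inhibitory clusters, and 0 and 25 in glia, so that the pairing by mouse moved no count by over 1.5 times. Scaling by library size only moved the median of all genes by 0.21 in M3, -0.16 in M2, -0.13 in T1, 0.12 in ET4, -0.11 and 0.12 in inhibitory clusters 3 and 7, 0.19 in glia together, and 0.13, 0.18 and 0.37 in astrocytes, OPCs and microglia. The setting of at least 20 nuclei left out no library between classes or among inhibitory clusters, and gave no separate fit there. Depth limits Doc2a, at 1.505 CPM or less in the mean of every projection type, and Cplx3, at 4.48 CPM or less.

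Counts per type moved more. Thinned to 3000 UMIs, M1 had 6 members higher in place of 12, with Doc2b, Baiap3, Syt10 and Syt17 too sparse to test, M2 had 3 lower in place of 7, M3 4 higher in place of 7 and T1 6 lower in place of 11. By library size only M2 had 2 higher in place of 7, M3 0 lower in place of 1 (Rph3a), and microglia 5 lower in place of 15. With M1 left out, ET4 had 1 higher in place of 3 and T1 7 lower in place of 11, without Cadps2. The M2 calls of Pclo and Bsn were lost with RLE size factors and with DESeq2, Pclo without mouse 1 and Bsn without mouse 2. Also lost were Cplx1 in ET1 without mouse 3, Rab3a in ET4 without mouse 1 or 3, Cplx3 in T1 without mouse 2, Sv2c, Syt10 and Syt16 in M1 without mouse 2, and Syt5 between classes without mouse 1. Without mouse 2 M2 had 4 lower in place of 7, and without mouse 1 the lower M2 calls of Syt6, Cplx3 and Rab3a (-0.95) were lost. Without mouse 1 inhibitory clusters 12, 15, 17 and 8 had 5, 7, 4 and 1 members lower in place of 8, 12, 8 and 2, and OPCs and microglia 13 and 9 in place of 20 and 15. Without mouse 3 astrocytes had 14 lower in place of 23, and cluster 6 had 5 higher in place of 8. In cluster 10 5 of the 8 lower calls were left without mouse 1 or 3. In cluster 7 the 4 lower calls became 8 without mouse 2 and 2 without mouse 3. The cause was not tested.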

Other observations

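Subclusters that entered no type comparison are given here by the values of a few members. Values given above as the highest or lowest elsewhere cover the named types only. In the unnamed subcluster 2, of 943 nuclei, Stxbp6 was at 282, 345 and 242 CPM in mice 1 to 3, Syt10 at 70.1, 93.9 and 104 CPM and Sv2c at 21.9, 44.0 and 44.2 CPM, beside Syt9 at 146, 149 and 152 CPM and Rims1 at 2509, 2509 and 2771 CPM. Its Gad1 was at 302 CPM and its Slc17a7 at 186 CPM over the 3 mice. In the unnamed subcluster 8, of 126 nuclei, Cadps2 was at 44.1, 69.8 and 101.5 CPM in mice 1 to 3. Doc2b was at 2.94, 19.6 and 5.64 CPM there, so both genes were also found outside the named types.

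In the periglomerular subcluster, of 89 nuclei, Doc2b was at 4.14, 17.1 and 40.2 CPM, and 12.4% of its nuclei held a Doc2b UMI (6.74% after thinning, 95% exact interval 2.51% to 14.1%, counting error only). Over all its nuclei Gad1 was at 271 CPM, beside the projection neuron markers Slc17a7 at 179 CPM and Cdhr1 at 223 CPM. In the endothelial and mural cluster, of 173 nuclei, Unc13c was at 191, 171 and 215 CPM, beside 16.7 to 23.2 CPM in projection neurons.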
